A study of Rattus norvegicus with 48 samples.

Results

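The enzymes that supply NADPH were followed in the livers of rats fed phenobarbital (PB). The set comprised 7 genes, Me1, Pgd, H6pd, Tkt, Taldo1, Idh1 and Nnt, out of 14217 genes with a probeset of their own on the array. Its probesets were found by gene symbol, and the genes were chosen with earlier results of these data known. A probeset is the group of oligonucleotides that reads 1 transcript on an Affymetrix array, and 9 of 31042 probesets carried 1 of these symbols. All 7 genes passed the filter on low signals, as did both probesets of Me1. A second Idh1 probeset did not pass (a signal of 90 or more on 1 array), and 4 weak probesets annotated to Pgd together with other genes were left out.

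Male Fischer F344 rats, 9 weeks old at the start, were given the sodium salt of PB in a standard milled diet at 0, 50, 500 or 1000 ppm for 1, 3, 7 or 14 days, and RNA came from the left lateral lobe. Each dose and day had 3 rats with 1 array each, chosen from 5, so 48 arrays made 16 groups. The rats were of 1 strain, sex and starting age, the controls ate the same diet without PB, and the doses were chosen to give 1 carcinogenic level (1000 ppm) and a lower pair that are not. Arrays were placed by the animal number in their description, because for 7 of them the deposited dose or time names another group.

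NADPH is the electron donor of cytochrome P450 reductase, of glutathione reductase and of fatty acid and sterol synthesis. In the cytosol it is made by the pentose phosphate pathway, by malic enzyme and by an isocitrate dehydrogenase, in the endoplasmic reticulum by H6pd, and in mitochondria in part by Nnt. Tkt and Taldo1 make no NADPH themselves: they move carbon between the sugar phosphates of the pentose phosphate pathway and glycolysis. In human and mouse cells, genes of this kind (Me1, Pgd, Tkt, Taldo1 and Idh1) are known targets of NFE2L2, the transcription factor that binds antioxidant response elements and is held back by KEAP1.

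Me1, Pgd and Tkt were the genes that rose with PB, so the bases before their transcription starts are shown, from RefSeq on the rat build GRCr8. Each line runs 5′ to 3′ on the strand of the gene, ends at the base before the start, and has in capitals any match to TGACNNNGC, the core of the antioxidant response element, on either strand.
Me1: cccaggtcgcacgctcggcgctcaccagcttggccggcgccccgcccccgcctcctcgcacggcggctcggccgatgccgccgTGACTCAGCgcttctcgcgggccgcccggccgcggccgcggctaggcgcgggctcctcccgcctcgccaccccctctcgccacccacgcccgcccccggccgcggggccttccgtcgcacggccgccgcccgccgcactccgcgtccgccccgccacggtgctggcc
Pgd: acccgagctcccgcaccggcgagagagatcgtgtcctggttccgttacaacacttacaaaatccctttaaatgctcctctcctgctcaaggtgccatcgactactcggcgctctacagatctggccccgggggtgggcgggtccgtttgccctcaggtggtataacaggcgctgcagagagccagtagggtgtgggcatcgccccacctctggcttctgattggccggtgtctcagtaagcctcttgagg
Tkt: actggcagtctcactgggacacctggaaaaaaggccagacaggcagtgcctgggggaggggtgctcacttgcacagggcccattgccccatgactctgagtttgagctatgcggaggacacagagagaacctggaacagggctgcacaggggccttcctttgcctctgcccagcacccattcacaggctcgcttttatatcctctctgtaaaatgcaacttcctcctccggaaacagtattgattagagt

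The Me1 stretch lies at chr8:96540245-96540494 on the minus strand and held 1 match, TGACTCAGC, which begins 167 bases before the start. The Pgd stretch (chr5:164882030-164882279, minus strand) and the Tkt stretch (chr16:5729982-5730231, plus strand) held none. Of the other members, Idh1 and Nnt each had 1 match in the 250 bases and H6pd and Taldo1 had none. The same letters stood in 10.1% of 33469 promoters of this length, so a match describes the sequence and does not show a binding site.

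The arrays listed 13506 to 16378 probesets each, and the remaining signals were absent and were left missing. Hepatocyte markers were plainly present: Alb averaged a signal of 54702 and Ttr 39855, on all 48 arrays. Of 5 hepatocyte markers tested at 1000 ppm over the 4 days, 1 was lower (Hnf4a, log2 fold change −0.24). The summed signal of the adipocyte markers was at most 91.6 at 1000 ppm and 133 at 0 ppm, with Lep listed on 0 arrays. Of the other cell types, 1 of 5 macrophage markers (Csf1r, −0.23) and 1 of 5 stellate cell markers (Pdgfrb, −0.38) were called lower, and the 1 bile duct marker tested was higher (Epcam, 0.53, with Krt7 listed on 0 arrays). The uncalled macrophage markers also had negative values, between −0.25 (Adgre1) and −0.19 (Cd68). Among the uncalled stellate cell markers, Lrat (−0.19), Col1a1 (−0.25) and Col3a1 (−0.19) had negative values and Acta2 did not (0.07). The summed signals ran between 6506 and 9447 at 1000 ppm and 6645 and 11270 at 0 ppm for macrophage markers, between 6109 and 9397 at 1000 ppm and 7255 and 10317 at 0 ppm for stellate cell markers, and between 617 and 1304 at 1000 ppm and 511 and 966 at 0 ppm for bile duct markers. The part of cell mixture in the results was not tested. In whole liver RNA, fewer cells of a type and less RNA per cell cannot be told apart. The arrays fall into 6 runs by the prefix of their names. Of the 12 groups given PB, 8 shared no run with a control of their own day, so on single days dose and run are hard to separate, whereas each run held rats of 1000 ppm and of 0 ppm.

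Me1, Tkt and Pgd were higher in livers of rats given 1000 ppm PB, and Nnt was slightly lower. Averaged over the 4 days, the signal was 1.79-fold the control level for Me1, 1.46-fold for Tkt and 1.35-fold for Pgd, and 0.912-fold for Nnt (12 rats against 12). The changes of Idh1 (1.10-fold), Taldo1 (1.04-fold) and H6pd (0.953-fold) did not pass the test, which was limma's moderated test over all probesets with a call at an adjusted p under 0.05. Thus 3 of 7 members were higher and 1 was lower, where 7.11% of 12680 tested probesets were higher and 7.01% lower. The median log2 change of the members was 0.14, against −0.008 over all probesets tested. Rescaling the arrays turned the split of all calls: 595 probesets were higher and 1292 lower after quantile normalization and 532 and 1277 with arrays divided by their median signal, against 901 and 889 as deposited. The direction of these 4 members held under both scalings.

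**Figure D1:**
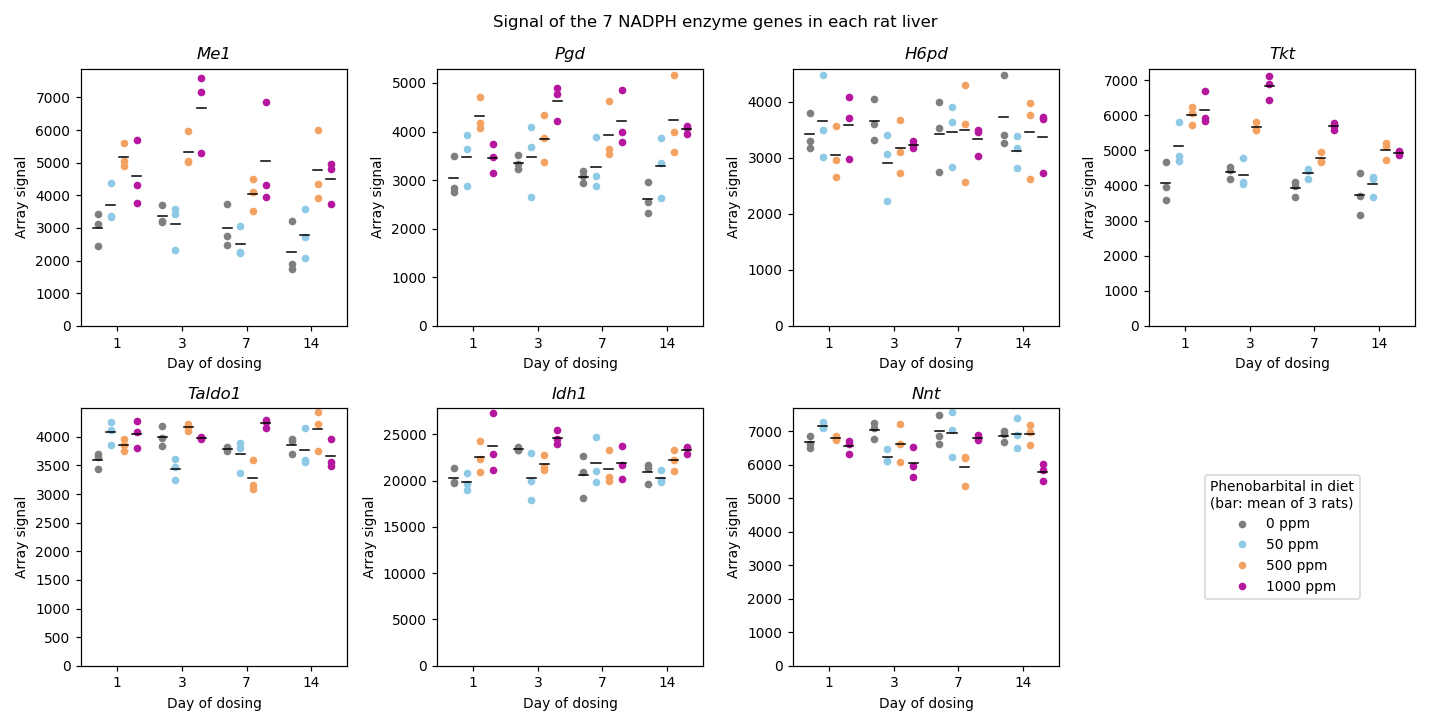
Array signal (linear scale, vertical axis) of each of the 7 genes in each rat liver, by day of dosing (horizontal axis) and dose (colour), with a bar at the mean of 3 rats. For Tkt every rat on 500 or 1000 ppm lay above every control of its day, and the controls ran between 3147 and 4671. The share of all probesets with such a separation was not computed.

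Me1 encodes the cytosolic malic enzyme, which turns malate into pyruvate and makes NADPH. Across the 4 days its lowest, median and highest signals were 1741, 3147 and 3738 at 0 ppm, 2071, 3197 and 4369 at 50 ppm, 3514, 4955 and 5993 at 500 ppm, and 3729, 4883 and 7589.8 at 1000 ppm (12 rats each). The levels at 0 and 50 ppm overlapped widely, and so did those at 500 and 1000 ppm. These pairs overlapped in part, since the highest rat at 50 ppm (4369) lay above the lowest at 500 ppm (3514) and at 1000 ppm (3729). The log2 fold change was 0.06 ± 0.12 (SE) at 50 ppm (adjusted p = 0.948), 0.75 ± 0.12 at 500 ppm (adjusted p = 1.80e-05) and 0.84 ± 0.12 at 1000 ppm (adjusted p = 1.58e-06).

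By day, Me1 read 4315, 5707 and 3777 at 1000 ppm on day 1, against 3422, 3109.8 and 2433 in the controls of that day. On day 3 it read 5295, 7589.8 and 7178 at 1000 ppm, against 3706, 3184 and 3209.8 in controls. On day 7 the values were 4326, 6869 and 3939 at 1000 ppm and 2757, 2465 and 3738 in controls, so that 1 rat of each group stood well above its fellows. On day 14 they were 4794, 4973 and 3729 at 1000 ppm and 1741, 3204 and 1883 in controls. All 3 treated rats were above all 3 controls on each of these days. How many of all probesets separated in this way was not computed, here or for the other members. The log2 fold changes were 0.62, 0.98, 0.73 and 1.03 on days 1, 3, 7 and 14 (SE 0.23 each), of which day 3 (adjusted p = 0.00895) and day 14 (adjusted p = 0.00802) passed the test.

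A second probeset annotated to Me1 gave the same direction. Its lowest, median and highest signals were 1270.0, 2021 and 2892 at 0 ppm, 1326, 2338 and 2739 at 50 ppm, 1819, 3881 and 4794 at 500 ppm, and 2115, 3339 and 5997 at 1000 ppm. Over the 4 days the second Me1 probeset differed from controls by 0.18 ± 0.14 at 50 ppm (adjusted p = 0.780), 0.87 ± 0.14 at 500 ppm (adjusted p = 2.75e-05) and 0.85 ± 0.14 at 1000 ppm (adjusted p = 2.32e-05) on the log2 scale. The Me1 probesets differed in which single days passed: at 1000 ppm the second passed on day 3 only (adjusted p = 0.0272) and read 0.79 on day 14 (adjusted p = 0.105), while at 500 ppm it passed on day 1 (adjusted p = 0.0204), where the first did not (adjusted p = 0.0903).

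Pgd encodes 6-phosphogluconate dehydrogenase, which makes NADPH in the pentose phosphate pathway. Its lowest, median and highest signals were 2328, 3022 and 3524 at 0 ppm, 2635, 3499 and 4102 at 50 ppm, 3374, 4034 and 5156 at 500 ppm, and 3139, 4037 and 4893 at 1000 ppm. The medians at 500 and 1000 ppm nearly coincided. The log2 fold change of Pgd was 0.16 ± 0.08 at 50 ppm (adjusted p = 0.602) and 0.44 ± 0.08 at both 500 ppm (adjusted p = 0.00022) and 1000 ppm (adjusted p = 0.000126). On day 14 the 3 rats on 1000 ppm lay close together at 4118, 4081 and 3957, against 2551, 2965 and 2328 in controls, a log2 fold change of 0.64 ± 0.16 (adjusted p = 0.0162). With arrays divided by their median signal this change was 0.41 and was not called (adjusted p = 0.107). On day 1 the groups overlapped, with 3749.6, 3485 and 3139 at 1000 ppm and 3504, 2759 and 2841 in controls.

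Tkt encodes transketolase, which links the pentose phosphates to glycolysis. On all 4 days every rat on 1000 ppm and every rat on 500 ppm lay above every control of that day. No other member did so at both doses. The share of all probesets that did so was not computed. On day 1 Tkt read 5919.7, 6695 and 5846 at 1000 ppm, against 4671, 3587 and 3951 in controls. On day 3 it read 6440.2, 7131 and 6903 at 1000 ppm, against 4523, 4447 and 4187 in controls. By day 14 the treated rats were lower than on the earlier days, at 4969, 4854 and 4957, against 3147, 4350.4 and 3696 in controls, and the 3 treated values differed little among themselves. The log2 fold changes at 1000 ppm were 0.60, 0.64, 0.54 and 0.41 on days 1, 3, 7 and 14 (SE 0.10 each), and all 4 passed the test (adjusted p between 5.4e-05 and 0.0132). The day 14 call depended on the scaling: it was lost after quantile normalization (0.30, adjusted p = 0.073) and with arrays divided by their median signal (0.18, adjusted p = 0.321). It was also lost with the deposited labels (adjusted p = 0.057) and without control rat 1 of day 14 (0.30, adjusted p = 0.124).

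The Tkt medians stood in the order of the doses. The lowest, median and highest signals were 3147, 4033 and 4671 at 0 ppm, 3683, 4326 and 5812 at 50 ppm, 4682, 5388 and 6245 at 500 ppm, and 4854, 5812 and 7131 at 1000 ppm. Over the 4 days Tkt differed from controls by 0.14 ± 0.05 at 50 ppm, 0.42 ± 0.05 at 500 ppm and 0.55 ± 0.05 at 1000 ppm on the log2 scale. The change at 500 ppm passed the test (adjusted p = 1.58e-07), as did that at 1000 ppm (adjusted p = 1.55e-10), but that at 50 ppm did not (unadjusted p = 0.00601, adjusted p = 0.389). On days 1 and 7 the 3 Tkt values at 50 ppm were above all controls, at 5812, 4695 and 4836 on day 1, against 4671, 3587 and 3951. On days 3 and 14 they overlapped the controls. At 50 ppm Taldo1 and Nnt lay wholly above the controls on day 1 and wholly below them on day 3. The share of all probesets with such a separation was not computed.

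**Figure D2:**
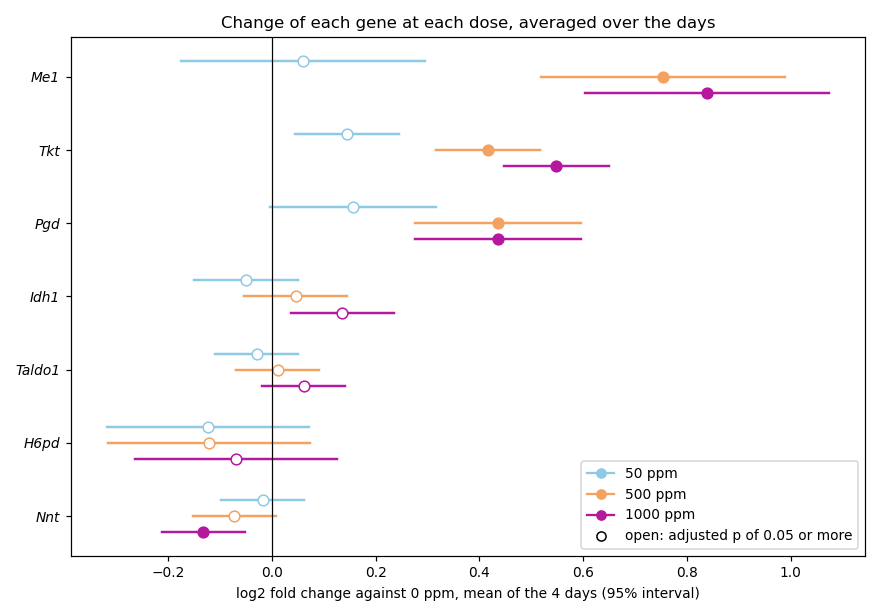
Log2 fold change of each gene against 0 ppm (horizontal axis), averaged over the 4 days, with 95% intervals, at 50, 500 and 1000 ppm (colours), filled where the adjusted p was under 0.05. Me1, Tkt and Pgd were filled at 500 and 1000 ppm, Nnt at 1000 ppm (−0.13), and no gene was filled at 50 ppm.

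Nnt encodes the transhydrogenase of the inner mitochondrial membrane, which uses the proton gradient to pass electrons from NADH to NADP. It was the member that fell. Its lowest, median and highest signals were 6511, 6864 and 7499 at 0 ppm, 6118, 6956 and 7571 at 50 ppm, 5357, 6682 and 7208 at 500 ppm, and 5523, 6425 and 6878 at 1000 ppm. Over the 4 days the log2 difference of Nnt from controls was −0.02 ± 0.04 at 50 ppm (adjusted p = 0.956), −0.07 ± 0.04 at 500 ppm (adjusted p = 0.294) and −0.13 ± 0.04 at 1000 ppm (adjusted p = 0.02). At 1000 ppm the low values came on days 3 and 14. On day 14 Nnt read 6019.7, 5523 and 5837 at 1000 ppm, all below the controls at 6673, 7005 and 6911, and on day 3 it read 5965, 6529 and 5630.0, below 7087, 7249.5 and 6769. Neither day passed limma's test on its own (adjusted p = 0.0739 on day 14 and 0.114 on day 3). With run as a block these were 0.667 and 0.347. The day 14 change was called in 3 of 11 other settings. On days 1 and 7 the rats on 1000 ppm overlapped the controls. The lowest Nnt signal came at 500 ppm on day 7, where 6207, 6245 and 5357 lay below all controls at 7499, 6874 and 6619, a log2 difference of −0.24 ± 0.08 (adjusted p = 0.0816). At 50 ppm all 3 rats were above the controls on day 1 and below them on day 3.

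Idh1, the cytosolic isocitrate dehydrogenase, had a joint effect of dose but no dose that passed on its own. Its lowest, median and highest signals were 18091, 21344 and 23613 at 0 ppm, 17875, 19964 and 24699 at 50 ppm, 19938, 21853 and 24289 at 500 ppm, and 20135, 23555 and 27306 at 1000 ppm. At 1000 ppm Idh1 differed from controls by 0.14 ± 0.05 on the log2 scale (unadjusted p = 0.00923, adjusted p = 0.0603; adjusted p = 0.0447 with run as a block). All 3 rats on 1000 ppm lay above the controls on days 3 and 14. On day 3 all 3 rats on 50 ppm and all 3 on 500 ppm lay below them. None of these single-day changes of Idh1 passed limma's test (adjusted p between 0.362 and 0.776). In the joint F test over the doses, 4 of 7 members passed (Me1, Pgd, Tkt and Idh1, the last with adjusted p = 0.0385), where 14.0% of 12070 probesets passed. The adjusted p of Nnt in this F test was 0.056. Leaving out single arrays, 3 to 5 members passed it.

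H6pd, which makes NADPH inside the endoplasmic reticulum, gave no call at any dose or day. Its signals at 1000 ppm ran from 2719 to 4083 with a median of 3375, against 2744 to 4475 with a median of 3465 in controls. The log2 difference of H6pd at 1000 ppm was −0.07, with a 95% interval of −0.26 to 0.13. On day 3 all 3 rats on 1000 ppm lay below the controls for H6pd, without a call (limma adjusted p = 0.713). Taldo1, the transaldolase that works beside Tkt, differed from controls by 0.06 at 1000 ppm, with an interval of −0.02 to 0.14. A rise of Taldo1 as large as that of Tkt lay outside this interval, although these genes were not tested against each other.

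At 500 ppm 3 of 7 members were called over the 4 days, Me1, Pgd and Tkt, all higher, where 4.64% of 12599 probesets were higher and 3.99% lower. The median log2 change of the members was 0.05, against −0.004 over all probesets tested. At 50 ppm limma called none of the 7 members (1 had an unadjusted p under 0.05, Tkt), where 0.149% of 12782 probesets were called. Between 1000 and 500 ppm none of the 7 was called either, as was the case for all 12396 probesets tested (0%), and 1 had an unadjusted p under 0.05. That was Tkt, at 0.13 ± 0.05 on the log2 scale (unadjusted p = 0.0115, adjusted p = 0.789). For Me1 the difference between 1000 and 500 ppm was 0.08 with a 95% interval of −0.15 to 0.32, and for Pgd it was −7e-04 with an interval of −0.16 to 0.16. The comparisons of 50, 500 and 1000 ppm with 0 ppm share the same 12 control rats.

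On single days the calls were fewer. Over the 12 comparisons of a dose with the control of its day, members were called 11 times, each time higher. At 1000 ppm these were Tkt on day 1 (1.69% of probesets higher), Tkt and Me1 on day 3 (2.19%), Tkt on day 7 (1.23%) and Tkt, Me1 and Pgd on day 14 (2.08%). At 500 ppm they were Tkt on day 1 (0.554%) and Tkt, Me1 and Pgd on day 14 (0.994%), with none by limma on day 3 (0.865%; 2 at an unadjusted p under 0.05) or day 7 (2.04%; 4 at an unadjusted p under 0.05). None was called at 50 ppm on any day by limma, with 2, 3, 0 and 1 members at an unadjusted p under 0.05 on days 1, 3, 7 and 14 (0.0142%, 0.102%, 3.66% and 0.112% of probesets called). The day 14 calls rested on few control rats. Without control 1 of day 14 all of them were lost, at 500 and 1000 ppm (adjusted p between 0.0506 and 0.124). Without control 3 of day 14 all but that of Tkt at 1000 ppm were lost (adjusted p between 0.0551 and 0.104). The count over the 12 comparisons was 6 in either case, any call gained on another day included. With arrays divided by their median signal, Pgd and Tkt lost their day 14 calls at both 500 and 1000 ppm (adjusted p between 0.0673 and 0.321). The call of Me1 at 1000 ppm on day 3 was lost without treated rat 2 (adjusted p = 0.0512) or 3 (adjusted p = 0.0582), that of Pgd at 1000 ppm on day 14 without treated rat 1 (adjusted p = 0.0513), and the 3 calls at 500 ppm on day 14 without treated rat 3 (adjusted p between 0.0672 and 0.141), of which Tkt was also lost without rat 2 (adjusted p = 0.0646). With run as a block only 2 of the 11 were called, Tkt at 1000 ppm on days 3 (adjusted p = 0.00213) and 14 (adjusted p = 0.0315), and the count over the days at 1000 ppm was 4 higher and 1 lower. Calls over all probesets also became fewer with this block: 4 were higher at 1000 ppm on day 1, against 236 without it, and 50 on day 14, against 281. Most of the lost calls kept a log2 fold change of similar size or larger, such as Me1 at 1000 ppm on day 14 (1.28 with the block and 1.03 without) and Tkt at 1000 ppm on day 7 (0.72 and 0.54). Those that shrank clearly were all of Tkt: at 1000 ppm on day 1 (0.39 and 0.60), and at 500 ppm on day 1 (0.36 and 0.57) and day 14 (0.31 and 0.44). All 3 rats of 1000 ppm on day 14 came from 1 run that held no control of that day.

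Within each of the 6 runs, where the days are mixed, Me1 was higher at 1000 ppm than at 0 ppm by 0.43 to 1.14 on the log2 scale and Tkt by 0.39 to 0.75. Pgd was higher in 5 of 6 runs (−0.05 to 0.64) and Nnt was lower in 5 of 6 (−0.26 to 0.00). Taldo1 and Idh1, which were not called, were also higher in 5 of 6 runs (−0.03 to 0.16 and −0.04 to 0.18), and H6pd was lower in 4 of 6.

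**Figure D3:**
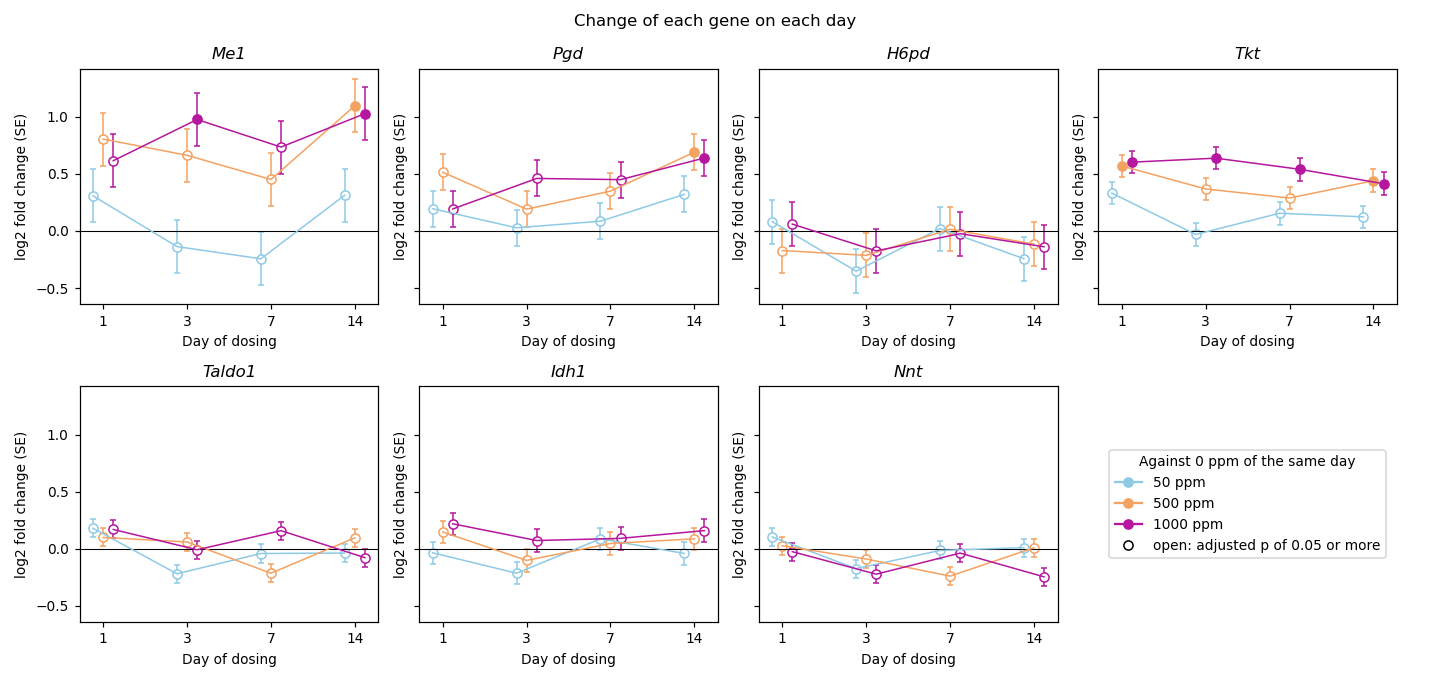
Log2 fold change of each gene against the control of the same day (vertical axis, bars SE), by day of dosing (horizontal axis) and dose (colour), filled where the adjusted p was under 0.05. The filled points are Tkt on all 4 days and Me1 on days 3 and 14 at 1000 ppm, and Tkt, Me1 and Pgd on day 14 at 500 and 1000 ppm, besides Tkt on day 1 at 500 ppm.

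No change of a response with the day of dosing was detected for the members that rose. By limma none of the 7 was called as different between day 14 and day 1 in its response to 1000 ppm (1.02% of 12989 probesets did; 1 member had an unadjusted p under 0.05) or to 500 ppm (0.0596% of 13429; no member had an unadjusted p under 0.05). For Me1 the response to 1000 ppm differed by 0.41 between day 14 and day 1, with a 95% interval of −0.25 to 1.08, which is wide. With arrays divided by their median signal, the responses of Tkt, Taldo1 and Nnt to 1000 ppm were called as lower on day 14 than on day 1 (3 of 7), but so were 2146 of 12989 probesets, against 59 called higher, and the median over all probesets was −0.301 in place of 0.03. In the controls alone limma called none of the 7 members between day 14 and day 1 (0.149% of 14076 probesets were called, and no member had an unadjusted p under 0.05). The Me1 controls read 1741, 3204 and 1883 on day 14 and 3422, 3109.8 and 2433 on day 1, a log2 difference of −0.43 ± 0.23 (adjusted p = 0.509).

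The exception was Taldo1, whose response to dose depended on the day (F test of the interaction, adjusted p = 0.0178), where 5.48% of 12070 probesets passed. No member other than Taldo1 passed this test. On day 7 Taldo1 read 3761, 3825 and 3796 at 0 ppm, 3593, 3163 and 3083 at 500 ppm and 4291, 4152 and 4267 at 1000 ppm, so that the high dose lay above the controls and the middle dose below them. On day 3 the values at 50 ppm (3472, 3612 and 3240.3) were below all controls (4188, 3844 and 3973), and on day 1 they were above them (3851, 4121 and 4266, against 3708, 3653 and 3439). With run as a block its adjusted p was 0.690, and the 3 rats of 500 ppm on day 7 shared no run with their controls.

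Rats of the same dose and day also differed together. After the mean of each dose and day was taken away, the log2 signals of Me1 and Pgd correlated with r = 0.756 over the 48 arrays (0.711 after allowing also for the run and the mean of each array), and those of Me1 and Tkt with r = 0.576 (0.612). Me1 and Gsr had r = −0.103, and Me1 and Por 0.006. H6pd, which was not called, correlated with Por at 0.536 (0.585), with Idh1 at 0.466 (0.62) and with Pgd at −0.477 (−0.47). These values share the arrays and are descriptions only, and no such r was computed over all pairs of genes.

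**Figure D4:**
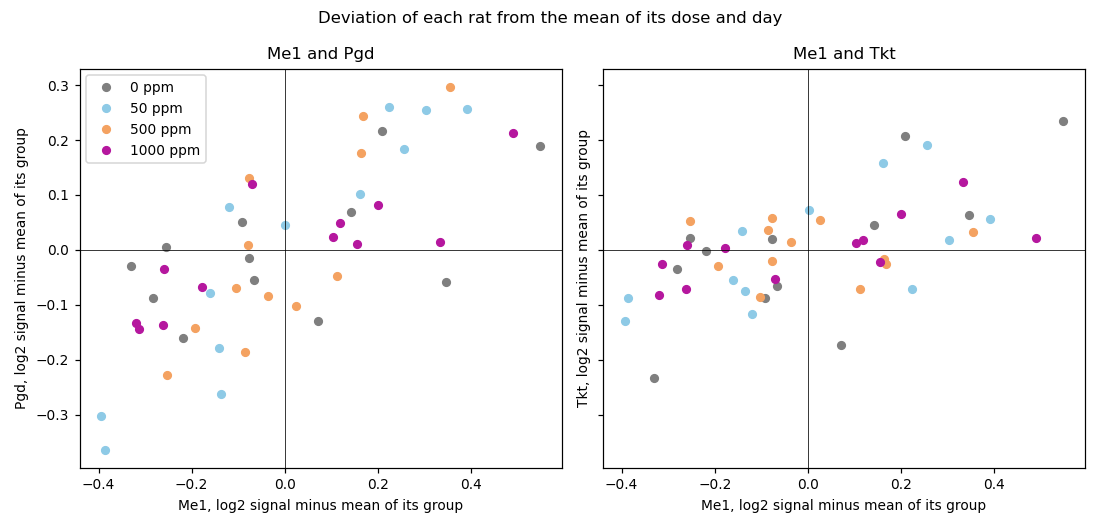
Deviation of each rat from the mean log2 signal of its dose and day, Pgd (left, vertical axis) or Tkt (right, vertical axis) against Me1 (horizontal axis), for 48 rats coloured by dose. Rats high for Me1 tended to be high for Pgd (r = 0.756) and for Tkt (r = 0.576) over the 48 rats, and r within single doses was not computed.

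Genes whose 16 group means were most like those of a member were looked for among 8389 genes (8388 for Me1), as a description over groups that share arrays of 6 runs. For Me1 they were Mdp1 (Pearson r = 0.939), Pir (0.936) and Tkt (0.929), and for Pgd they were Abcb11 (0.915), Entpd5 (0.914) and Me1 (0.913). Pir encodes pirin, a nuclear protein, and Abcb11 the bile salt export pump. For Idh1 they were Tpm1 (0.904), Psma6 (0.848) and Arpin (0.837), and for Nnt they were Dpy19l1 (0.919), Rbms3 (0.905) and Uvrag (0.895).

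The other enzymes around NADPH were read from lists made by role. Of 6 other genes of the pentose phosphate pathway and of ribose use that could be tested (Pgls, Rpia, Rpe, Rbks, Prps1 and Shpk), none was called at 1000 ppm by limma, and their log2 changes ran between −0.08 (Rpe) and 0.13 (Prps1, adjusted p = 0.189), with a median of 0.06. Of 5 other dehydrogenases that can reduce NADP, Aldh1l1, the cytosolic formyltetrahydrofolate dehydrogenase, was higher (0.46 ± 0.07, adjusted p = 4.39e-06) and Glud1, the mitochondrial glutamate dehydrogenase, was lower (−0.36 ± 0.04, adjusted p = 1.56e-07). Idh2, the mitochondrial relative of Idh1, differed by 0.09 ± 0.07 (adjusted p = 0.442).

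Among 9 genes of NAD and NADP synthesis, Nadk, the cytosolic kinase that makes NADP from NAD, was higher at 1000 ppm (0.23 ± 0.04, adjusted p = 9.64e-05) and at 500 ppm (0.25 ± 0.04, adjusted p = 4.13e-05). Nampt, which salvages nicotinamide, was lower (−0.40 ± 0.12, adjusted p = 0.0198), as were Nmnat3 (−0.23, adjusted p = 0.0492) and Qprt (−0.17, adjusted p = 0.0361). The list was thus 1 higher and 3 lower of 9 with a median of −0.11, but with run as a block 2 of the 9 were lower (Nmnat3 had an adjusted p of 0.0673), and without the 7 arrays of disputed label only 1.

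The list with the most calls was that of NADPH users in drug and redox metabolism, in which 8 of 13 genes were higher at 1000 ppm and 3 were lower (median 0.286). Por, the reductase that hands electrons from NADPH to cytochrome P450, averaged a signal of 3358 at 1000 ppm and 1583 at 0 ppm, a log2 fold change of 1.08 ± 0.08 (adjusted p = 4.24e-12). Gsr, glutathione reductase, averaged 1428 at 1000 ppm and 815 at 0 ppm (0.81 ± 0.07, adjusted p = 2.95e-11). Akr7a3, an aldehyde reductase, rose by 1.29 ± 0.14 and the quinone reductase Nqo1 by 1.11 ± 0.10. Fmo1, a flavin-containing monooxygenase, fell by 1.28 on the log2 scale (adjusted p = 2.22e-10). Hsd11b1, which takes NADPH made by H6pd to reactivate glucocorticoid, was lower by a small amount (−0.17 ± 0.06, adjusted p = 0.032).

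Among NADPH users in lipid and sterol synthesis, 1 of 7 genes was called at 1000 ppm, Dhcr7 of cholesterol synthesis (0.29 ± 0.07, adjusted p = 0.00213). Fasn, the fatty acid synthase, differed by −0.23 ± 0.17 (adjusted p = 0.448). Of 10 genes that make or move citrate and malate, the substrates behind Idh1 and Me1, Aco1 (0.29, adjusted p = 0.000206) and Slc25a11 (0.12, adjusted p = 0.0142) were higher and Pc, pyruvate carboxylase, (−0.57 ± 0.06, adjusted p = 3.05e-08) and Cs, citrate synthase, (−0.23, adjusted p = 0.00721) were lower. Acly, ATP citrate lyase, differed by −0.13 ± 0.12 (adjusted p = 0.523).

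Of 9 regulators, Nfe2l2 (0.38 ± 0.09, adjusted p = 0.00483) and its partner Keap1 (0.31 ± 0.06, adjusted p = 0.00083) were higher at 1000 ppm, and Nr1i3, which encodes the receptor CAR through which PB acts, was lower (−0.49 ± 0.10, adjusted p = 0.00101). Thrsp and Srebf1, known partners of lipid synthesis, differed by −0.29 (adjusted p = 0.112) and −0.27 (adjusted p = 0.356). The shares of all tested probesets to set beside these lists were 7.11% higher and 7.01% lower.

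**Figure D5:**
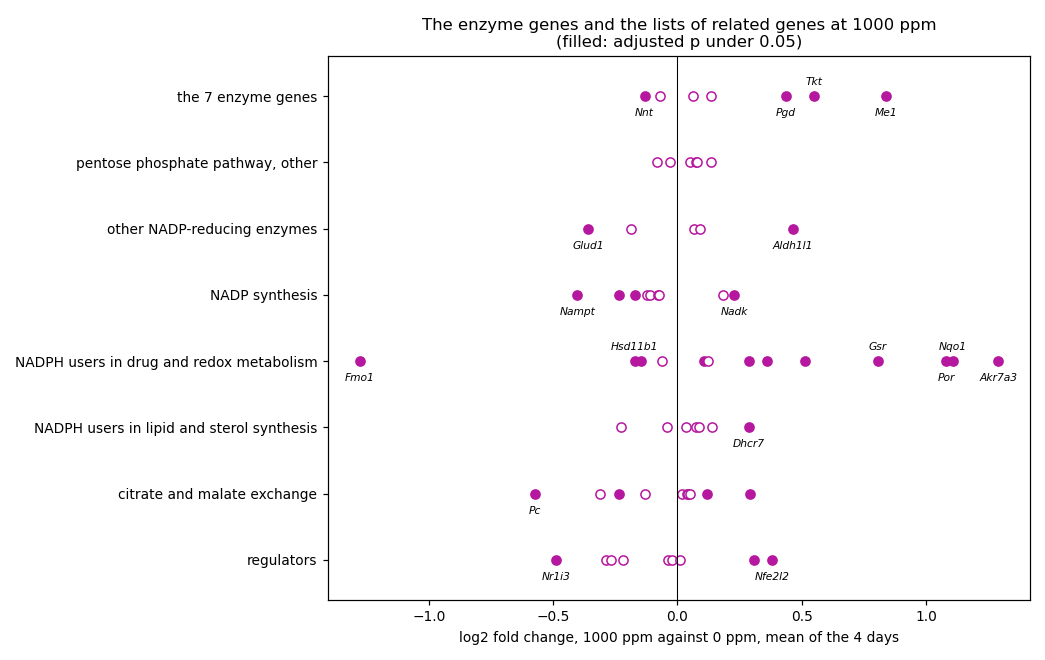
Log2 fold change at 1000 ppm against 0 ppm, averaged over the 4 days (horizontal axis), of the 7 enzyme genes and of each tested gene of 7 lists of related genes (rows), filled where the adjusted p was under 0.05. Drug and redox users of NADPH span the widest range, between Fmo1 (−1.28) and Akr7a3 (1.29), and no other pentose phosphate gene is filled.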

How the data were processed

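Liver RNA of 48 rats was hybridised to Affymetrix RG-230 v2 arrays. The authors made 1 intensity (signal) per probeset with Microarray Suite (MAS) 5.0, scaled to a mean of 500 per the methods, so that a level is relative to its array (means of the listed signals were 1545 to 1983), and the deposited intensity values, with absent signals not listed, were used on a log2 scale. A second deposited table, which holds the authors' ratios for 776 probesets, was not used. Members and gene lists were chosen with earlier results of these data known. Gene names are those of the platform annotation, which gave 1 symbol to 20826 probesets, several to 436 and none to 9780, and a gene was read from the highest probeset annotated to it alone. Of the probesets, 18073 reached 90 on at least 3 arrays. Limma 3.58.1 (R 4.3.3) was fitted with 1 mean for each of 16 groups, on all listed values, and checked on simulated data. Comparisons needed 2 or more listed values in every group involved, and their p-values were adjusted within each by Benjamini-Hochberg. Named genes were the 7 members, up to 4 called genes with the largest change per list, Por, Gsr and Hsd11b1, and the 3 genes most alike to Me1, Pgd, Idh1 and Nnt. Others named were chosen after their values were seen. The number of arrays limits the precision. Promoters were searched in Python 3. Alternatives are given in the closing section.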

Additional observations from a re-analysis of the deposited data

Results flagged for a closer look

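The response of Taldo1 to dose differed between days by the test of the interaction (adjusted p = 0.0178, over 9 contrasts). On day 7 all 3 rats of 1000 ppm were above the controls and all 3 rats of 500 ppm below them. The adjusted p was 0.690 with run as a block, and the part of the run in this result was not tested further.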

How the results depend on the processing

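The counts of calls and the member values were recomputed under up to 12 other settings and without each array of the groups compared. Of 1520 member values under the settings, 1477 stayed on their side of the threshold, 18 lost and 25 gained a call, and 0 called values changed sign. Most of the 1520 were uncalled in the main fit and had no call to lose. All 18 losses were of calls on single days, more of them with run as a fixed block than with any other setting. Counting also the 1386 values without 1 array, 127 uncalled values changed sign. Me1, Pgd and Tkt were called over the 4 days at 1000 and 500 ppm in all 12 settings, and Nnt at 1000 ppm in the 11 that could test it (adjusted p between 0.0105 and 0.0412), whereas Idh1 at 1000 ppm was called in 4 of 11 (adjusted p between 0.0404 and 0.27). With run as a fixed block the calls over the 12 dose and day comparisons were 2 in place of 11. The interaction was passed by 1 member, by 0 with run as a fixed block, with the deposited labels or without variance moderation over probesets with a 1.5-fold change, by 2 with run as a random block, by 3 after quantile normalization and by 4 with arrays divided by their median signal. The response to 1000 ppm on day 14 minus day 1 was called for 1 member (Taldo1) after quantile normalization and for 3 with arrays divided by their median signal, settings under which the median over all probesets was −0.26 and −0.301 on the log2 scale, in place of 0.03. The cause was not tested.

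Leaving out single arrays gave 4 to 5 members called at 1000 ppm, 3 at 500 ppm, 0 at 50 ppm, 0 between 1000 and 500 ppm, 6 to 12 calls over the 12 comparisons, 0 for both responses and for controls on day 14 against day 1, 3 to 5 in the dose F test and 1 in the interaction. With the title numbers as a replicate block the counts were 4, 3 and 0 members at 1000, 500 and 50 ppm, 11 over the 12 comparisons, 5 in the dose F test and 1 in the interaction. The title numbers do not meet the bar for pairing: deviations correlated with a mean r of 0.023 between arrays of the same number and −0.011 otherwise, and 29 of 48 arrays correlated best with their own of 3 numbers, a hint from the data and not from the design. The list of other dehydrogenases had 2 lower genes, that of citrate and malate 1 higher and the regulators 2 lower under both scalings, and NADP synthesis had 1 lower with the deposited labels. Dim probesets limit the genes that could be tested.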
